A study of Mus musculus with 24 samples.

Results

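The cytochrome P450 genes analysed here are the protein-coding mouse genes named Cyp with a family number, a subfamily letter and a gene number, outside the Cyp1 family, that reached 1 CPM (read counts scaled to a common sum of gene reads) in at least 3 of 24 libraries. Of 39179 genes counted, 91 carried such a symbol outside the Cyp1 family, and 46 of these passed the level condition. Family 2 gave 21 of the 46, family 3 gave 4, family 4 gave 13 and family 27 gave 2. Families 7, 11, 20, 21, 26 and 39 gave 1 each. Cyp2e1, at 1.09 CPM in its third-highest library, Cyp4f39 at 1.47 and Cyp4a32 at 1.61 lay just inside the condition, and Cyp2j13 at 0.959, Cyp2r1 at 0.944 and Cyp2t4 at 0.899 lay just outside it. Among the 45 P450 genes below the condition were Cyp7a1, the rate-limiting enzyme of bile acid synthesis, and Cyp24a1, which degrades active vitamin D. All 46 members also passed the filter on low counts that preceded the tests.

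P450 enzymes are haem proteins of the endoplasmic reticulum or the mitochondrion that insert an oxygen atom into a lipophilic substrate with electrons passed on by a reductase. Families 2 and 3 act mostly on drugs, plant compounds, steroids and polyunsaturated fatty acids. Family 4 hydroxylates fatty acids and eicosanoids such as leukotriene B4, and the remaining families make or break down sterols, steroid hormones, retinoic acid and vitamin D. In the gut, P450 enzymes of the epithelium meet dietary compounds before they reach the liver, and their genes are known targets of nuclear receptors such as the pregnane X receptor and of hepatocyte nuclear factor Hnf4a.

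RNA was sequenced from dissected mouse gut in 8 groups of 3 libraries, in a study of Cdx2, the homeobox gene that specifies intestinal identity, as a tumour suppressor. Cecum was taken from untreated wild-type mice, from untreated Cdx2+/- mice, from 2 sets of Cdx2-/- mice and from Cdx2-/-;Apc+/- mice. Wild-type stomach and Apc+/- ileum were also untreated, and Cdx2-/-;Apc+/- ileum completed the design. The Cdx2-/- samples carried Cdx2f/f::AhCreERT, a floxed Cdx2 with a tamoxifen-dependent Cre recombinase under a Cyp1a1 promoter, and had received tamoxifen and β-naphthoflavone. The Cdx2-/-;Apc+/- samples carried the ApcD14 allele in addition (Cdx2f/f::AhCreERT::ApcD14/+) and received the same agents. Every group labelled Cdx2-/- was therefore treated and every other group was not, so deletion and treatment cannot be told apart. β-naphthoflavone activates the aryl hydrocarbon receptor, whose best-known targets are the Cyp1 genes, and Cyp1 genes are outside the rule. The genotype entries of Apc+/- ileum disagree among themselves: replicate 2 is given as ApcD14/+, while replicates 1 and 3 carry the entry of the floxed line together with a description of Cdx2 as not floxed, and the sample titles were followed. Animal ages were not given in the sources used here, and nothing there says whether replicates were different animals. The p-values therefore reflect only how far these samples spread, which may be technical. Because whole tissue was sequenced, fewer cells of a type and less RNA per cell cannot be told apart.

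The libraries held 36567685 to 87975179 reads assigned to genes, of which P450 members took 0.0567% to 1.01%. Cdx2 itself stood at 623, 663 and 408 TMM-normalised CPM in wild-type cecum, at 118, 115 and 116 in Cdx2+/- cecum, at 287, 168 and 165 and at 148, 130.0 and 349 in the Cdx2-/- sets 1 and 2, and at 151, 122 and 137 in Cdx2-/-;Apc+/- cecum. The Cdx2-/- cecum libraries thus lay below the wild-type ones but above the Cdx2+/- ones, and a count over the whole gene cannot show whether a floxed exon was removed. The names Cdx2-/- and Cdx2-/-;Apc+/- therefore stand for the labels throughout. In the ileum Cdx2 was at 90.1, 63.3 and 112 in Apc+/- and at 78.9, 178 and 36.9 in the libraries labelled Cdx2-/-;Apc+/-, of which replicate 2 exceeded every control. Cdx2 in stomach did not exceed 1.52 CPM. Set 1 had the levels of females for Xist (666 to 816 CPM, against at most 2.19 elsewhere) and Ddx3y (at most 0.250, against 42.3 to 124 elsewhere), so sex goes with that set. Replicates 2 and 3 of set 1 were closer to each other than any other pair (chi-square per degree of freedom 7.03 over genes, against 53.0 to 507). They still differed by more than sampling noise and were kept as 2 samples.

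Wild-type cecum was dominated by 1 P450 gene. Cyp2c55, an enzyme that hydroxylates and epoxidises arachidonic acid and is known from mouse cecum and colon, stood at 8125, 11133 and 5986 CPM and made up 72.8% to 78.8% of the members' summed level in these libraries. The sum over all 46 members was 11163, 14126 and 7699 CPM in wild-type cecum, 3354, 3226 and 2199.8 in Cdx2+/- cecum and 576 to 1183 in the 9 cecum libraries labelled Cdx2-/-. With Cyp2c55 left out, the other 45 members summed to 1712 to 3038 CPM in wild-type, 1552 to 2181 in Cdx2+/- and 567 to 962 in the libraries labelled Cdx2-/-. Wild-type and Cdx2+/- cecum overlapped on this second sum, and both lay above all 9 cecum libraries labelled Cdx2-/-. Compared per kilobase of exon, which allows genes of different length to be set side by side, Cyp2c55 took 81.3% of the summed member level in wild-type cecum, followed by Cyp3a13 at 4.31% and Cyp2c65 at 3.77%. Per library, on the CPM scale, Cyp2c55 made up 29.4% to 46.8% of the members' sum in Cdx2+/- cecum. It made up 32.3%, 0.555% and 0.552% in set 1 and 3.92%, 23.8% and 3.97% in set 2. In Cdx2-/-;Apc+/- cecum it made up 33.8%, 1.43% and 32.5%, so its share varied widely between the libraries of each of these groups. Per kilobase, stomach was led by Cyp2s1 at 36.6% and Cyp2c65 at 36.1%, and Apc+/- ileum by Cyp4f14 at 22.9% and Cyp3a13 at 11.1%. Between 24 and 32 of the 46 members reached 1 CPM in every library of a group, but members with a group mean of at least 100 CPM numbered 12 in wild-type cecum, 7 in Cdx2+/- cecum and 1 or 2 in each cecum group labelled Cdx2-/-.

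**Figure D1:**
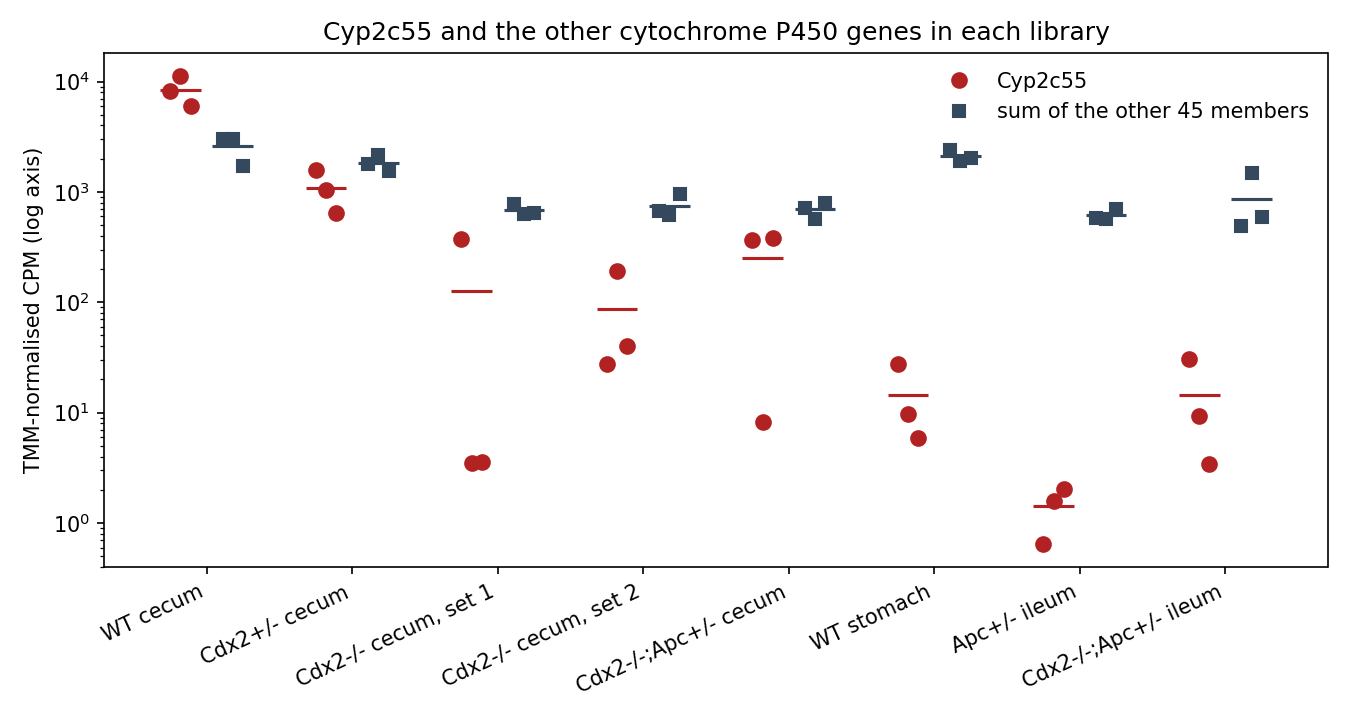
TMM-normalised CPM of Cyp2c55 (circles) and of the other 45 P450 members summed (squares) in each library of the 8 groups, on a log axis, with lines at group means. Cyp2c55 lies between 5986 and 11133 CPM in wild-type cecum, above all 21 other libraries, and between 3.53 and 384 in the 9 cecum libraries labelled Cdx2-/-.

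The 13 members with their highest group mean in wild-type cecum outnumbered those of any other group (8 in stomach, 6 in Cdx2+/- cecum, 5 each in Cdx2-/-;Apc+/- cecum and ileum, 3 each in the remaining groups). For 7 members, Cyp2c55, Cyp2d22, Cyp3a13, Cyp4b1, Cyp4f13, Cyp4f15 and Cyp4f40, the 3 wild-type cecum libraries lay above all 21 others. For Cyp7b1, Cyp11a1 and Cyp20a1 they lay below all others, and for the other 36 members they overlapped with other libraries. The same counts were not made over all genes, so they do not show a trait particular to the members.

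In Cdx2-/- cecum, 32 of the 46 members differed from wild-type at an adjusted p under 0.05 in edgeR's quasi-likelihood test: 19 fell and 13 rose. Among all 20502 genes tested 53.1% were called (26.2% lower and 26.9% higher), so a call as such was common in this contrast. The median log2 change was -0.47 over the members and 0.04 over all genes. Of the 22 xenobiotic and broad-substrate members 11 fell and 5 rose, and of the 16 fatty acid and eicosanoid members 8 fell and 2 rose. These classes were set by gene family and not by measured substrate. Families 2 and 3 without Cyp2j and Cyp2u1 formed the former, and family 4 with these genes the latter. Arachidonic acid enzymes such as Cyp2c55, Cyp2c65 and Cyp2c23 were thus counted as xenobiotic and broad-substrate. None of the other 8 members, which act on sterols, steroid hormones, retinoic acid or vitamin D or have no settled role, was called lower in this contrast. In 14 members the 6 Cdx2-/- libraries lay below all wild-type libraries, in 11 above, and in 21 they overlapped. Such separation was not counted over all genes. Of the 32 calls 24 held in each of the 9 fits that left out 1 library. Set 1 alone gave 27 calls (10 higher, 17 lower) and set 2 alone 29 (12 higher, 17 lower).

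Fewer members differed between Cdx2+/- and wild-type cecum: 19 of 46, with 11 higher and 8 lower, where 34.4% of all genes were called (17.1% higher and 17.3% lower). The median log2 change was 0.31 over the members and -0.05 over all genes. Cdx2-/-;Apc+/- cecum differed from wild-type in 28 members, 12 higher and 16 lower, where 52.8% of all genes were called (26.6% higher and 26.1% lower), with medians of -0.05 over the members and 0.07 over all genes. These 3 comparisons share the wild-type libraries. Cdx2-/- against Cdx2+/- cecum, in which treatment also differs, gave 29 called members, 10 higher and 19 lower, where 40.3% of all genes were called (19.7% higher and 20.6% lower), with medians of -0.99 and 0.05. Scaling by library size alone, in place of TMM, moved the members' log2 changes by a median of 0.43 for Cdx2-/- against wild-type, 0.13 for Cdx2+/- against wild-type, 0.46 for Cdx2-/-;Apc+/- against wild-type and 0.31 for Cdx2-/- against Cdx2+/-. It gave 14 higher and 14 lower for Cdx2-/- against wild-type, 13 and 13 for Cdx2-/-;Apc+/- against wild-type and 13 higher and 16 lower for Cdx2-/- against Cdx2+/-.

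**Figure D2:**
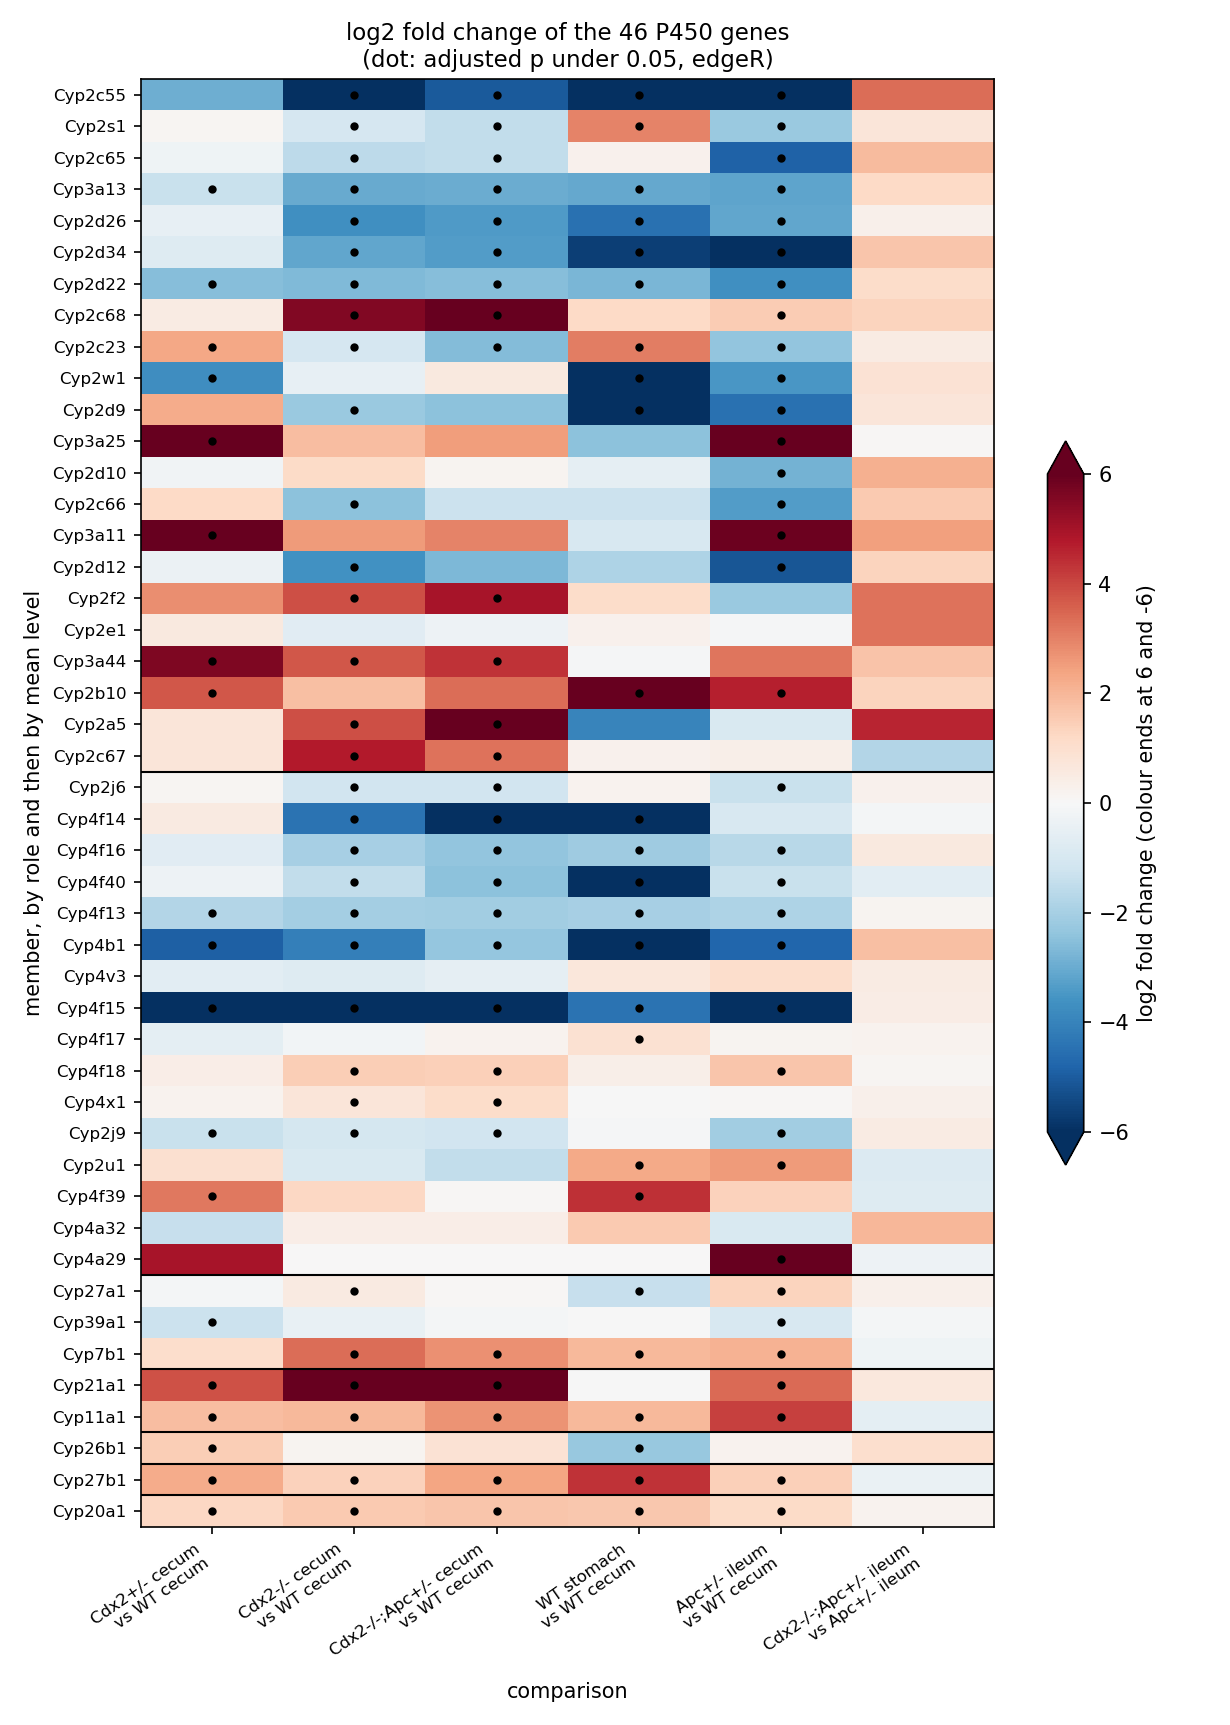
Log2 fold change of the 46 members (rows, by role) in 6 comparisons (columns), with a dot where edgeR's adjusted p was under 0.05. Cyp2c55, Cyp4f15 and Cyp4b1 carry negative changes and Cyp20a1 and Cyp21a1 positive ones in the 3 cecum comparisons with wild-type (the colour of Cyp4a29, at 0 reads in wild-type cecum, depends on the prior count).

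The Cyp2c members split in Cdx2-/- cecum: 4 of 6 fell and 2 rose, where 26.2% of all genes fell and 26.9% rose. The arachidonic acid enzyme Cyp2c55 (chr19:39007019-39042693, GRCm38, plus strand) was at 373, 3.53 and 3.55 CPM in set 1 and at 27.5, 193 and 39.8 in set 2. Every one of these values lay below the wild-type libraries, and replicate 1 of set 1 stood far above replicates 2 and 3. Its log2 change was -6.33 ± 1.23 (SE, edgeR adjusted p = 0.00027). In Cdx2-/-;Apc+/- cecum it was at 368, 8.25 and 384 CPM, again below all wild-type libraries, with a log2 change of -5.05 ± 1.58 (SE, edgeR adjusted p = 0.011). Against Cdx2+/- cecum the change of Cdx2-/- was -3.37 ± 1.12 (SE, edgeR adjusted p = 0.023). It was -5.95 (edgeR adjusted p = 0.00034) without replicate 1 of set 1, -3.16 (edgeR adjusted p = 0.052) without replicate 4 of set 2 and -3.01 (edgeR adjusted p = 0.076) without Cdx2+/- replicate 1. Cdx2+/- cecum held 1568, 1045 and 648 CPM itself, also below every wild-type library, with a log2 change against wild-type of -2.95 ± 1.43 (SE, edgeR adjusted p = 0.12) that was not called. A fit of these 2 groups alone (-2.90, edgeR adjusted p = 0.0025) and DESeq2 (-2.99, adjusted p = 0.019) both called it.

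Cyp2c65 (chr19:39061015-39093944, plus strand), a neighbour of Cyp2c55 that also acts on arachidonic acid, was at 547, 310.1 and 275 CPM in wild-type cecum, 379, 318 and 251 in Cdx2+/-, 129, 79.6 and 83.7 in set 1, 121, 91.5 and 298 in set 2 and 149.5, 102 and 157 in Cdx2-/-;Apc+/- cecum. Replicate 6 of set 2 overlapped with wild-type, and the other libraries labelled Cdx2-/- lay below it. The log2 change in Cdx2-/- cecum was -1.55 ± 0.37 (SE, edgeR adjusted p = 0.0015). In Cdx2-/-;Apc+/- cecum it was -1.47 ± 0.45 (SE, edgeR adjusted p = 0.01), and without wild-type replicate 1 -1.10 (edgeR adjusted p = 0.068). The adjoining Cyp2c66 was at 2.52, 5.06 and 8.48 CPM in wild-type, 14.8, 12.6 and 9.58 in Cdx2+/- and 0.111 to 3.12 across Cdx2-/- cecum. Its Cdx2-/- libraries overlapped with wild-type, and for its log2 change of -2.47 ± 0.94 (SE, edgeR adjusted p = 0.033) the call was lost in 6 of the 9 fits that left out 1 library (edgeR adjusted p of 0.053 to 0.13 there). Against Cdx2+/- cecum it was -3.67 ± 0.95 (SE, edgeR adjusted p = 0.0056). Without replicate 1 of set 1 the change against wild-type was -3.98 (edgeR adjusted p = 0.0015).

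Cyp2c67 (chr19:39608842-39649051, minus strand) and Cyp2c68 (chr19:39688834-39741054, minus strand), 2 Cyp2c genes farther along the same cluster, moved the other way. Cyp2c68 was at 0.424, 0.376 and 1.10 CPM in wild-type cecum and at 1.06, 1.04 and 0.659 in Cdx2+/- cecum. It reached 33.9, 20.6 and 23.8 in set 1, 48.7, 44.6 and 14.3 in set 2 and 70.7, 21.9 and 49.9 in Cdx2-/-;Apc+/- cecum. All 9 libraries labelled Cdx2-/- lay above all 6 wild-type and Cdx2+/- libraries. The log2 change against wild-type was 5.55 ± 0.59 (SE, edgeR adjusted p = 3.3e-07) in Cdx2-/- and 6.18 ± 0.63 (SE, edgeR adjusted p = 3.4e-07) in Cdx2-/-;Apc+/- cecum. Against Cdx2+/- cecum it was 5.05 ± 0.57 (SE, edgeR adjusted p = 9.4e-06), and between Cdx2+/- and wild-type it was 0.50 ± 0.56 (SE, edgeR adjusted p = 0.52). Cyp2c67 rose from at most 0.104 CPM in wild-type to 0.511 to 3.18 in Cdx2-/- cecum, a log2 change of 4.74 ± 0.90 (SE, edgeR adjusted p = 0.00021). Of the 50-base words in its longest transcript, 52.8% were shared with other genes for Cyp2c67 and 43.3% for Cyp2c68 (35.6% with Cyp2c40), against 0.514% for Cyp2c55. Reads of such shared stretches may be counted for a relative or dropped, so the levels of this pair are uncertain. Cyp2c65 shared 20.6% and Cyp2c66 20.4% of such words, mostly with each other, so their levels carry the same doubt.

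Cyp2c23, an arachidonic acid epoxygenase, had a pattern of its own. It was at 3.97, 3.62 and 2.02 CPM in wild-type cecum, 12.4, 17.9 and 16.9 in Cdx2+/- cecum, 23.4, 28.2 and 30.1 in stomach and at most 2.35 in every library labelled Cdx2-/-. The Cdx2+/- libraries lay above wild-type cecum with a log2 change of 2.30 ± 0.45 (SE, edgeR adjusted p = 0.00065). Against Cdx2+/- cecum it fell in Cdx2-/- cecum, with a log2 change of -3.29 ± 0.36 (SE, edgeR adjusted p = 7.6e-06). Against wild-type its log2 change in Cdx2-/- cecum was -0.99 ± 0.37 (SE, edgeR adjusted p = 0.03), and the call was lost in 5 of the 9 fits that left out 1 library (edgeR adjusted p of 0.054 to 0.13 there). In Cdx2-/-;Apc+/- cecum, at 0.404, 0.601 and 0.593 CPM, it was -2.58 ± 0.48 (SE, edgeR adjusted p = 0.00019) against wild-type. Scaling by library size alone left 2 of the 4 Cyp2c members that fell in Cdx2-/- cecum called lower, and both that rose called higher.

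The 300-base promoter windows of Cyp2c55, the gene that took most of the P450 RNA of wild-type cecum, and of 4 other members are shown. These 4 hold the letters CAAAGTCCA, which were searched as an Hnf4 motif. The 4 were printed because they hold a match, so they are not a full set of the Cyp2c genes that fell or rose. That Hnf4a RNA differed between the groups was known when the windows were chosen. Each window runs 5′ to 3′ in the direction of the gene from 250 bases before to 50 bases after the RefSeq start on GRCm38.p6, and capitals mark the letters CAAAGTCCA.
Cyp2c55 (chr19:39006769-39007068, plus strand): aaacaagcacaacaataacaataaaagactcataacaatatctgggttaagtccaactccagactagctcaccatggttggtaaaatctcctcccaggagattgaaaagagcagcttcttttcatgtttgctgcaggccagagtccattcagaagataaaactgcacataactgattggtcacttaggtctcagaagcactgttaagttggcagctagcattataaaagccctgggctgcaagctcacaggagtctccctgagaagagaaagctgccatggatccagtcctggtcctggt
Cyp2c65 (chr19:39060756-39061055, plus strand): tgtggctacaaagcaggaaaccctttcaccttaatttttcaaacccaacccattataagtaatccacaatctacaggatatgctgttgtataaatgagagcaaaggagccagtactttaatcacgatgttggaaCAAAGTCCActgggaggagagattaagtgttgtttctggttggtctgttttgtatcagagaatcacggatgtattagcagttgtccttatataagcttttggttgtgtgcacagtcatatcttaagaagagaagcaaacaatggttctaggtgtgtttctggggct
Cyp2c67 (chr19:39648993-39649292, minus strand): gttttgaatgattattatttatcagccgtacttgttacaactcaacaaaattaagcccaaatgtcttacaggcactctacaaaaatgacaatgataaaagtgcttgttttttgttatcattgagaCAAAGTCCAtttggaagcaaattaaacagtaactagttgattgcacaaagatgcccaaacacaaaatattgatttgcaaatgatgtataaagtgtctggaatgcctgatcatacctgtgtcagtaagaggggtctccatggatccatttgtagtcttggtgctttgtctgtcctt
Cyp2c68 (chr19:39741052-39741351, minus strand): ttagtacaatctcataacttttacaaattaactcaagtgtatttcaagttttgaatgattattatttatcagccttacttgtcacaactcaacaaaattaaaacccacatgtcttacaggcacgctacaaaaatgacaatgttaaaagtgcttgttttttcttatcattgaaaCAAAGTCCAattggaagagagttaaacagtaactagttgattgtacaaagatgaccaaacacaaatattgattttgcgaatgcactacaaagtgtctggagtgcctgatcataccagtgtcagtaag
Cyp3a11 (chr5:145879805-145880104, minus strand): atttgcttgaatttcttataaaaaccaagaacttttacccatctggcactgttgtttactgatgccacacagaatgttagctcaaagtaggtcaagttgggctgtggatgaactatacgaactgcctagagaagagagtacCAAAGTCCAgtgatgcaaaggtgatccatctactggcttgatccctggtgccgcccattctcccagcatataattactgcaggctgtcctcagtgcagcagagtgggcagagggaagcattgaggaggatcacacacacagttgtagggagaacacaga
RefSeq held windows for 36 of the 46 members, and 4 of the 36 contained CAAAGTCCA or its reverse complement TGGACTTTG. The match began 116 bases before the start in Cyp2c65, 125 in Cyp2c67, 77 in Cyp2c68 and 109 in Cyp3a11. Of 27025 genes with a window 0.555% held it in at least 1 window. Cyp2c65, which fell in Cdx2-/- cecum, and Cyp2c67 and Cyp2c68, which rose, thus all carried these letters within 125 bases before the start. Cyp2c55, Cyp2c66 and Cyp2c23, which also fell, were not among the 4. The windows of Cyp2c67 and Cyp2c68 are nearly alike around the match, so these are not independent matches. The caudal-type letters TTTATG or their reverse complement CATAAA occurred in 3 of the 36 members (Cyp2b10, Cyp3a44 and Cyp4a29), against 13.6% of all genes with a window. The aryl hydrocarbon receptor core GCGTG or CACGC occurred in 9 of the 36, against 35.2% of all genes with a window. A match of letters describes the sequence and is not a measured binding site.

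**Figure D3:**
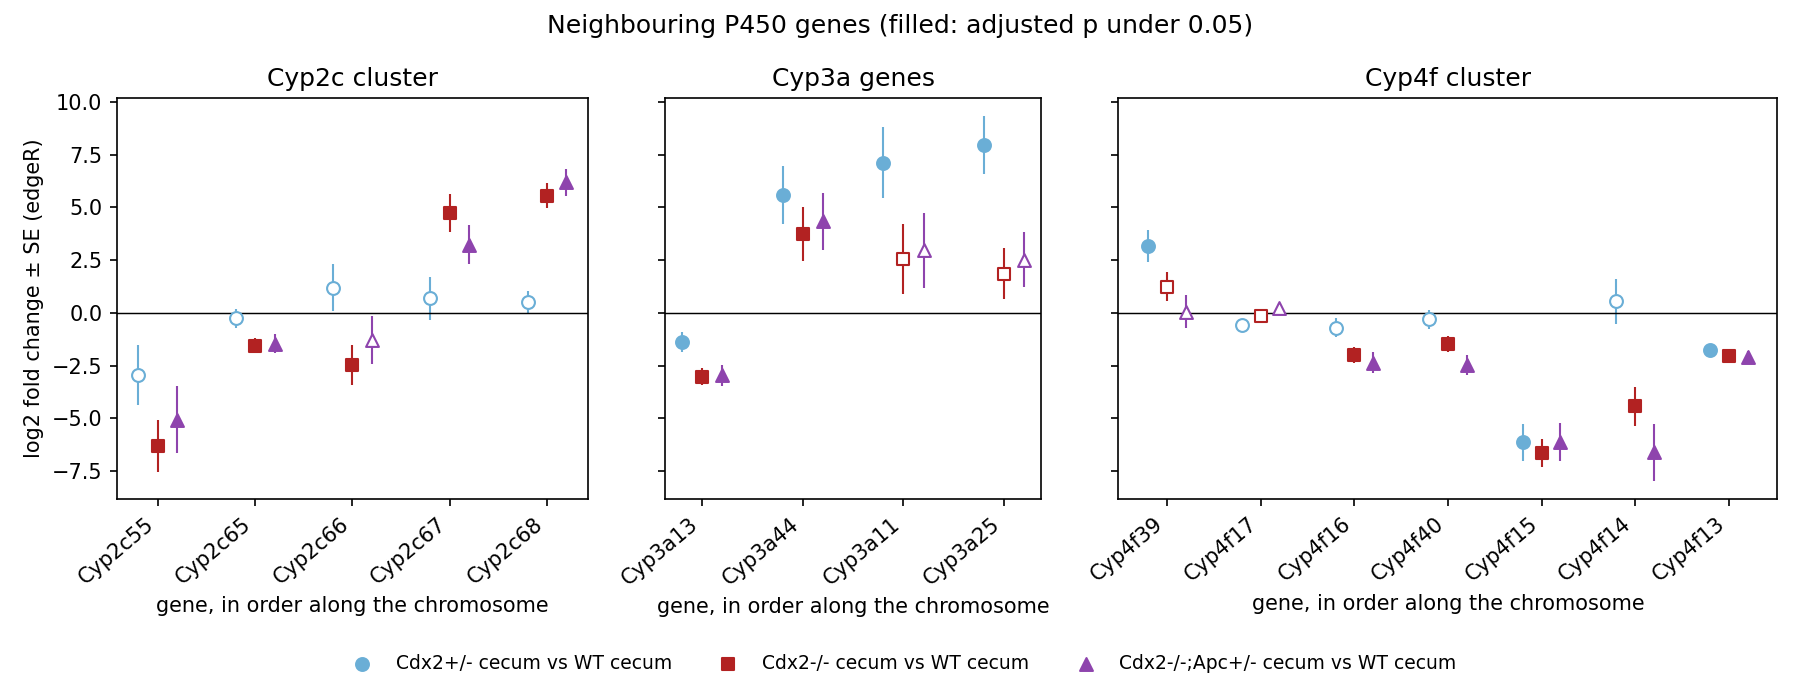
Log2 fold change with its SE against wild-type cecum of neighbouring Cyp2c, Cyp3a and Cyp4f genes in chromosome order, for Cdx2+/-, Cdx2-/- and Cdx2-/-;Apc+/- cecum, with filled points where edgeR's adjusted p was under 0.05. Cyp2c55 and Cyp2c65 lie below 0 and Cyp2c67 and Cyp2c68 above 0 in both groups labelled Cdx2-/-, while Cyp3a44, Cyp3a11 and Cyp3a25 lie highest in Cdx2+/- cecum.

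The Cyp3a genes oxidise steroids and drugs and include targets of the pregnane X receptor. In Cdx2+/- against wild-type cecum 3 of the 4 were called higher and 1, Cyp3a13, lower. In Cdx2-/- against wild-type cecum 1 was called higher, 1 lower and 2 were not called. Cyp3a13 (chr5:137892932-137921619, minus strand) lies apart from the others and was at 696, 921 and 367 CPM in wild-type cecum. It was at 227, 340.1 and 206 in Cdx2+/-, 77.4, 87.3 and 91.9 in set 1, 77.6, 53.6 and 102 in set 2 and 80.0, 82.3 and 92.5 in Cdx2-/-;Apc+/- cecum. All of these lay below all wild-type libraries. The log2 change was -3.02 ± 0.39 (SE, edgeR adjusted p = 3.4e-06) in Cdx2-/- and -2.96 ± 0.50 (SE, edgeR adjusted p = 8.0e-05) in Cdx2-/-;Apc+/- cecum. In Cdx2+/- cecum it was -1.36 ± 0.48 (SE, edgeR adjusted p = 0.033), where the call was lost in 4 of the 6 fits that left out 1 library (edgeR adjusted p of 0.07 to 0.14 there).

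The 3 clustered genes were close to absent from wild-type cecum and present in Cdx2+/- cecum. Cyp3a25 (chr5:145977194-146009618, minus strand) was at 0.0795, 0.105 and 0.0594 CPM in wild-type and at 19.5, 27.9 and 13.0 in Cdx2+/- cecum, with no overlap and a log2 change of 7.94 ± 1.38 (SE, edgeR adjusted p = 0.00022). In set 1 it was at 0.424, 0.0633 and 0.0504 CPM, in set 2 at 0.422, 0.818 and 0.111 and in Cdx2-/-;Apc+/- cecum at 0.191, 0.0462 and 1.14. These libraries lay below all Cdx2+/- ones, and the change of Cdx2-/- against Cdx2+/- was -6.09 ± 0.90 (SE, edgeR adjusted p = 8.6e-05). Cyp3a11 (chr5:145854426-145879964, minus strand), the main hepatic Cyp3a gene, had 4 reads in all in wild-type cecum, against 4.28, 6.30 and 1.36 CPM in Cdx2+/- and 0.0204 to 0.499 in Cdx2-/- cecum. Cyp3a44 was at 0.0795, 0.0209 and 0.0446 CPM in wild-type and 3.17, 2.28 and 1.65 in Cdx2+/- cecum, a log2 change of 5.60 ± 1.37 (SE, edgeR adjusted p = 0.0037). In Cdx2-/- cecum it was at 0.413 to 1.63 CPM, a log2 change against wild-type of 3.74 ± 1.28 (SE, edgeR adjusted p = 0.019). That last call was lost without wild-type replicate 2 at 3.41 (edgeR adjusted p = 0.076) or replicate 3 at 3.70 (edgeR adjusted p = 0.06). All 3 clustered genes were thus called higher in Cdx2+/- than in wild-type cecum and Cyp3a13 lower. Of all genes 17.1% were called higher and 17.3% lower there. Cyp3a25 shared 26.8% and Cyp3a44 26.5% of 50-base words with other genes.

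Of the 6 Cyp2d members, relatives of the human drug-metabolising CYP2D6, 5 fell in Cdx2-/- cecum and none rose. Among all genes 26.2% fell and 26.9% rose in this contrast. Cyp2d26 was at 141, 133 and 67.5 CPM in wild-type, 79.8, 86.0 and 77.9 in Cdx2+/-, 20.3, 2.03 and 2.15 in set 1 and 5.30, 5.54 and 18.7 in set 2. No Cdx2-/- library reached a wild-type or Cdx2+/- one, and the log2 change against wild-type was -3.66 ± 0.71 (SE, edgeR adjusted p = 0.00026). Cyp2d34 was at 159, 118 and 72.9 CPM in wild-type, 85.2, 66.3 and 54.5 in Cdx2+/-, 36.7, 2.85 and 1.97 in set 1 and 5.78, 21.6 and 10.9 in set 2, again without overlap and with a change of -3.13 ± 0.67 (SE, edgeR adjusted p = 0.00066). In Cdx2-/-;Apc+/- cecum the changes were -3.41 ± 0.92 (SE, edgeR adjusted p = 0.0043) for Cyp2d26 and -3.34 ± 0.88 (SE, edgeR adjusted p = 0.0036) for Cyp2d34. Neither was called between Cdx2+/- and wild-type cecum.

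Cyp2d22 was the Cyp2d gene that was also lower in Cdx2+/- cecum. It was at 81.1, 96.0 and 49.1 CPM in wild-type, 15.1, 12.6 and 10.4 in Cdx2+/- and 6.99 to 19.8 in the libraries labelled Cdx2-/-. No library of these groups reached the wild-type ones, and the changes against wild-type were -2.57 ± 0.45 (SE, edgeR adjusted p = 0.00022) in Cdx2+/- and -2.65 ± 0.35 (SE, edgeR adjusted p = 4.4e-06) in Cdx2-/- cecum. Cyp2d9 stood highest in Cdx2+/- cecum at 45.5, 33.1 and 21.3 CPM, against 10.04, 7.05 and 4.62 in wild-type and 0.202 to 5.28 in Cdx2-/- cecum. Between Cdx2+/- and wild-type the libraries did not overlap, but the difference was not called. The change of Cdx2-/- against Cdx2+/- cecum was -4.44 ± 0.86 (SE, edgeR adjusted p = 0.00075). Against wild-type it was -2.24 ± 0.83 (SE, edgeR adjusted p = 0.03), where the call was lost in 6 of the 9 fits that left out 1 library (edgeR adjusted p of 0.053 to 0.11 there). Replicate 1 of set 1 held the highest Cdx2-/- level of Cyp2c55, Cyp2c66, Cyp2d9, Cyp2d12, Cyp2d26 and Cyp2d34. Without it the change against wild-type was -5.92 (edgeR adjusted p = 0.00028) for Cyp2d12, from -3.66 with all libraries, and -3.59 (edgeR adjusted p = 0.00073) for Cyp2d9. Cyp2d10, at 4.42, 4.08 and 3.03 CPM in wild-type and 4.24 to 21.9 in Cdx2-/- cecum, was the sixth Cyp2d gene, with a change of 1.15 ± 0.49 (SE, edgeR adjusted p = 0.055). Against Cdx2+/- cecum its change was 1.35 ± 0.49 (SE, edgeR adjusted p = 0.037), and the call was lost in 6 of the 9 fits that left out 1 library (edgeR adjusted p of 0.057 to 0.14 there). Scaling by library size alone called it higher and left 4 Cyp2d genes called lower.

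Among the remaining broad-substrate members, Cyp2s1, an enzyme of epithelia outside the liver, was at 201, 142 and 100.3 CPM in wild-type cecum, 177, 175 and 126 in Cdx2+/-, 48.9, 74.6 and 68.9 in set 1, 42.9, 25.4 and 182 in set 2 and 32.6, 60.7 and 66.7 in Cdx2-/-;Apc+/- cecum. Replicate 6 of set 2 overlapped with wild-type and the other 8 lay below. For its change in Cdx2-/- cecum of -1.01 ± 0.40 (SE, edgeR adjusted p = 0.042) the call was lost in 6 of the 9 fits that left out 1 library (edgeR adjusted p of 0.058 to 0.22 there), and without replicate 6 of set 2 the change was -1.65 (edgeR adjusted p = 4.9e-05). Cyp2w1, known in human from fetal gut and colorectal tumours, was at 9.16, 9.20 and 13.1 CPM in wild-type, 0.760, 0.556 and 1.08 in Cdx2+/-, 8.56, 2.26 and 1.82 in set 1, 14.6, 13.4 and 11.4 in set 2 and 19.01, 5.55 and 23.1 in Cdx2-/-;Apc+/- cecum. Cdx2+/- cecum lay below every other cecum library, with a change of -3.71 ± 0.67 (SE, edgeR adjusted p = 0.00029) against wild-type, and Cdx2-/- exceeded Cdx2+/- cecum with a change of 3.22 ± 0.62 (SE, edgeR adjusted p = 0.0007). Cyp2a5, known as the coumarin-hydroxylating enzyme of liver and nasal tissue, was at most 0.206 CPM in wild-type, Cdx2+/- and set 1 and reached 1.82, 2.68 and 2.80 CPM in set 2. Cyp2f2, an enzyme of lung club cells, was at 0.132, 0.125 and 0.0891 CPM in wild-type and at 0.356 to 3.35 in Cdx2-/- cecum, without overlap and with a change of 3.88 ± 1.25 (SE, edgeR adjusted p = 0.014).

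Of the fatty acid and eicosanoid members, the Cyp4f genes, which inactivate leukotriene B4 and hydroxylate long-chain fatty acids, were mostly lower in Cdx2-/- cecum. There 5 of 8 were called lower and 1 higher, where 26.2% of all genes were called lower and 26.9% higher. Cyp4f14 (chr17:32905070-32917342, minus strand) was at 332, 209 and 179.8 CPM in wild-type and 221, 534 and 293 in Cdx2+/- cecum. It was at 18.7, 14.9 and 14.5 in set 1, 18.7, 2.41 and 2.40 in set 2 and 2.87, 0.601 and 3.88 in Cdx2-/-;Apc+/- cecum. Wild-type and Cdx2+/- overlapped, and all 9 libraries labelled Cdx2-/- lay below both. The change was -4.42 ± 0.92 (SE, edgeR adjusted p = 0.0005) in Cdx2-/- and -6.61 ± 1.36 (SE, edgeR adjusted p = 0.00049) in Cdx2-/-;Apc+/- cecum against wild-type. Cyp4f15 (chr17:32685627-32703352, plus strand), its neighbour, was lower in Cdx2+/- cecum too. It was at 21.8, 69.9 and 17.6 CPM in wild-type, 0.521, 0.556 and 0.476 in Cdx2+/-, 0.185 to 0.729 in Cdx2-/- and 0.425, 0.347 and 0.797 in Cdx2-/-;Apc+/- cecum. Every other cecum library lay below wild-type, with changes of -6.13 ± 0.89 (SE, edgeR adjusted p = 3.6e-05) in Cdx2+/-, -6.64 ± 0.67 (SE, edgeR adjusted p = 1.8e-07) in Cdx2-/- and -6.11 ± 0.89 (SE, edgeR adjusted p = 1.6e-05) in Cdx2-/-;Apc+/- cecum.

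Cyp4f13, in the same cluster, fell from 119, 130.3 and 78.5 CPM in wild-type to 34.6, 33.6 and 29.6 in Cdx2+/- and 21.4 to 33.4 in Cdx2-/- cecum, without overlap. Its changes were -1.74 ± 0.27 (SE, edgeR adjusted p = 8.0e-05) and -2.04 ± 0.22 (SE, edgeR adjusted p = 4.0e-07). Cyp4f16 was at 179, 157 and 61.5 CPM in wild-type, 91.0, 93.4 and 61.8 in Cdx2+/- and 27.4 to 38.9 in Cdx2-/- cecum, a change of -2.01 ± 0.38 (SE, edgeR adjusted p = 0.00022) for the last, whose libraries all lay below wild-type. Cyp4f40 was at 131, 127 and 123 CPM in wild-type, 97.9, 96.0 and 116 in Cdx2+/-, 75.0, 51.5 and 51.0 in set 1, 37.3, 32.5 and 36.3 in set 2 and 27.6, 17.5 and 23.5 in Cdx2-/-;Apc+/- cecum. It fell in the libraries labelled Cdx2-/-, all below wild-type, with changes of -1.48 ± 0.37 (SE, edgeR adjusted p = 0.0023) in Cdx2-/- and -2.48 ± 0.47 (SE, edgeR adjusted p = 0.00022) in Cdx2-/-;Apc+/- cecum. Cyp4f17 and Cyp4f39 were not called in Cdx2-/- cecum. Cyp4f39, which hydroxylates ultra-long-chain fatty acids of the skin barrier, was at 0.238, 0.125 and 0.267 CPM in wild-type and 2.82, 1.35 and 1.67 in Cdx2+/- cecum, with a change of 3.19 ± 0.76 (SE, edgeR adjusted p = 0.0031). Cyp4f18, the leukotriene B4 hydroxylase of neutrophils and a Cyp4f member that lies on chromosome 8, rose from 1.32, 1.11 and 0.743 CPM in wild-type to 1.92 to 4.64 in Cdx2-/- cecum, a change of 1.45 ± 0.42 (SE, edgeR adjusted p = 0.0065).

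Cyp4b1, which activates furans and hydroxylates medium-chain fatty acids, was at 94.1, 286 and 67.1 CPM in wild-type, 3.24, 7.02 and 4.85 in Cdx2+/-, 6.69, 5.60 and 5.66 in set 1, 18.4, 16.1 and 3.58 in set 2 and 33.3, 10.5 and 44.6 in Cdx2-/-;Apc+/- cecum. Wild-type lay above all of them, with changes of -4.88 ± 0.74 (SE, edgeR adjusted p = 5.8e-05) in Cdx2+/- and -4.09 ± 0.54 (SE, edgeR adjusted p = 4.2e-06) in Cdx2-/- cecum. In Cdx2-/-;Apc+/- cecum the change was -2.34 ± 0.66 (SE, edgeR adjusted p = 0.006), and without wild-type replicate 2 it was -1.45 (edgeR adjusted p = 0.074). Cyp2j6, an epoxygenase of arachidonic and linoleic acid, was at 229, 172 and 128 CPM in wild-type, 188, 212 and 168 in Cdx2+/- and 69.1 to 105 in Cdx2-/- cecum, a change of -1.13 ± 0.15 (SE, edgeR adjusted p = 5.5e-06) for the last without overlap. Its relative Cyp2j9 fell in Cdx2-/- cecum with a change of -1.04 ± 0.25 (SE, edgeR adjusted p = 0.0019) and was lost from the calls under scaling by library size alone. Cyp4v3, the mouse counterpart of a fatty acid hydroxylase linked to crystalline retinal dystrophy, was at 9.56, 21.5 and 14.9 CPM in wild-type and 6.91 to 13.9 in Cdx2-/- cecum, with overlap and a change of -0.76 ± 0.51 (SE, edgeR adjusted p = 0.22). Cyp4x1, at 1.56, 1.65 and 1.69 CPM in wild-type, 2.05, 1.49 and 1.60 in set 1 and 3.67, 6.81 and 2.45 in set 2, was higher in set 2 than in set 1 with a change of 1.33 ± 0.31 (SE, edgeR adjusted p = 0.012). That call was lost in 3 of the 6 fits that left out 1 library, with changes of 0.83 to 1.28 (edgeR adjusted p of 0.051 to 0.11 there), the smallest without replicate 5 of set 2. Cyp4x1 and Cyp2a5 were the only 2 of 46 members called between the sets, both higher in set 2, where 10.5% of all genes were called (4.03% higher and 6.45% lower).

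Of the sterol genes, Cyp7b1 (chr3:18071950-18243338, minus strand), an oxysterol and steroid hydroxylase of the alternative bile acid pathway, was at 0.503, 0.439 and 1.01 CPM in wild-type and 1.37, 1.16 and 1.54 in Cdx2+/- cecum. It reached 9.13, 8.45 and 8.94 in set 1, 4.17, 7.97 and 3.13 in set 2 and 5.23, 4.07 and 3.88 in Cdx2-/-;Apc+/- cecum, all above wild-type and Cdx2+/-. Its change against wild-type was 3.34 ± 0.42 (SE, edgeR adjusted p = 2.6e-06) in Cdx2-/- and 2.73 ± 0.44 (SE, edgeR adjusted p = 4.5e-05) in Cdx2-/-;Apc+/- cecum. Cyp27a1, the mitochondrial sterol side-chain hydroxylase that begins that pathway, was at 15.8, 21.6 and 18.6 CPM in wild-type, 26.6, 32.7 and 30.6 in set 1 and 25.7, 25.1 and 21.9 in set 2. The Cdx2-/- libraries lay just above wild-type, with a change of 0.53 ± 0.17 (SE, edgeR adjusted p = 0.016), and of 0.42 (edgeR adjusted p = 0.097) without wild-type replicate 1. Cyp39a1, which hydroxylates an oxysterol of brain origin, was at 21.8, 18.7 and 24.4 CPM in wild-type and 8.34, 9.57 and 8.50 in Cdx2+/- cecum, without overlap and with a change of -1.30 ± 0.24 (SE, edgeR adjusted p = 0.00034). In Cdx2-/- cecum it was at 10.6 to 23.8 CPM, overlapping with wild-type, with a change of -0.45 ± 0.20 (SE, edgeR adjusted p = 0.062).

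Cyp21a1 (chr17:34801348-34804561, minus strand), the steroid hydroxylase needed to make corticosterone, had the largest called increase among the members in Cdx2-/- cecum. It was at 0.212, 0.0418 and 0.0891 CPM in wild-type, 1.15, 1.89 and 1.69 in Cdx2+/-, 31.5, 23.8 and 20.7 in set 1, 14.4, 24.2 and 5.53 in set 2 and 10.3, 6.47 and 17.1 in Cdx2-/-;Apc+/- cecum. The Cdx2+/- libraries lay above wild-type and the libraries labelled Cdx2-/- above both. The change against wild-type was 7.45 ± 0.63 (SE, edgeR adjusted p = 2.2e-08) in Cdx2-/-, 6.68 ± 0.63 (SE, edgeR adjusted p = 1.7e-07) in Cdx2-/-;Apc+/- and 3.84 ± 0.60 (SE, edgeR adjusted p = 7.6e-05) in Cdx2+/- cecum. The gene overlaps the pseudogene Tnxa on the opposite strand and shares 23.7% of its 50-base words with other genes, mostly Cyp21a2-ps, so part of its count is uncertain. Cyp11a1, the side-chain cleavage enzyme that begins steroid synthesis, stayed low: 0.212, 0 and 0.282 CPM in wild-type, 0.565, 0.851 and 0.421 in Cdx2+/- and 0.468 to 0.826 in Cdx2-/- cecum. Wild-type lay below both, with changes of 1.95 ± 0.57 (SE, edgeR adjusted p = 0.0072) in Cdx2-/- and 1.85 ± 0.62 (SE, edgeR adjusted p = 0.026) in Cdx2+/- cecum. The Cdx2+/- call was lost without Cdx2+/- replicate 2 at 1.54 (edgeR adjusted p = 0.1) and without wild-type replicate 2 at 1.29 (edgeR adjusted p = 0.052).

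Cyp26b1, which breaks down retinoic acid, was at 1.56, 2.15 and 4.95 CPM in wild-type, 3.50, 15.1 and 5.88 in Cdx2+/- and 2.00 to 7.20 in Cdx2-/- cecum. The groups overlapped, and the Cdx2+/- change of 1.49 ± 0.54 (SE, edgeR adjusted p = 0.039) became 0.69 (edgeR adjusted p = 0.35) without Cdx2+/- replicate 2. It was also lost without wild-type replicate 1 at 1.20 (edgeR adjusted p = 0.15) or 2 at 1.32 (edgeR adjusted p = 0.13). Cyp27b1, which activates vitamin D, was at 0.159, 0.0627 and 0.178 CPM in wild-type, 0.673, 0.625 and 0.641 in Cdx2+/- and 2.54, 2.72 and 2.97 in stomach. All Cdx2+/- libraries lay above wild-type, with a change of 2.24 ± 0.51 (SE, edgeR adjusted p = 0.0023). In Cdx2-/- cecum, at 0.192 to 0.533 CPM, its change was 1.39 ± 0.47 (SE, edgeR adjusted p = 0.018), and 1.06 (edgeR adjusted p = 0.1) without wild-type replicate 2. Cyp20a1, a conserved P450 gene of unknown substrate, was at 7.73, 9.02 and 13.1 CPM in wild-type cecum and between 18.6 and 34.5 in all 21 other libraries. Its change was 1.22 ± 0.19 (SE, edgeR adjusted p = 6.2e-05) in Cdx2+/-, 1.55 ± 0.17 (SE, edgeR adjusted p = 4.8e-07) in Cdx2-/- and 1.66 ± 0.19 (SE, edgeR adjusted p = 1.1e-06) in Cdx2-/-;Apc+/- cecum.

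**Figure D4:**
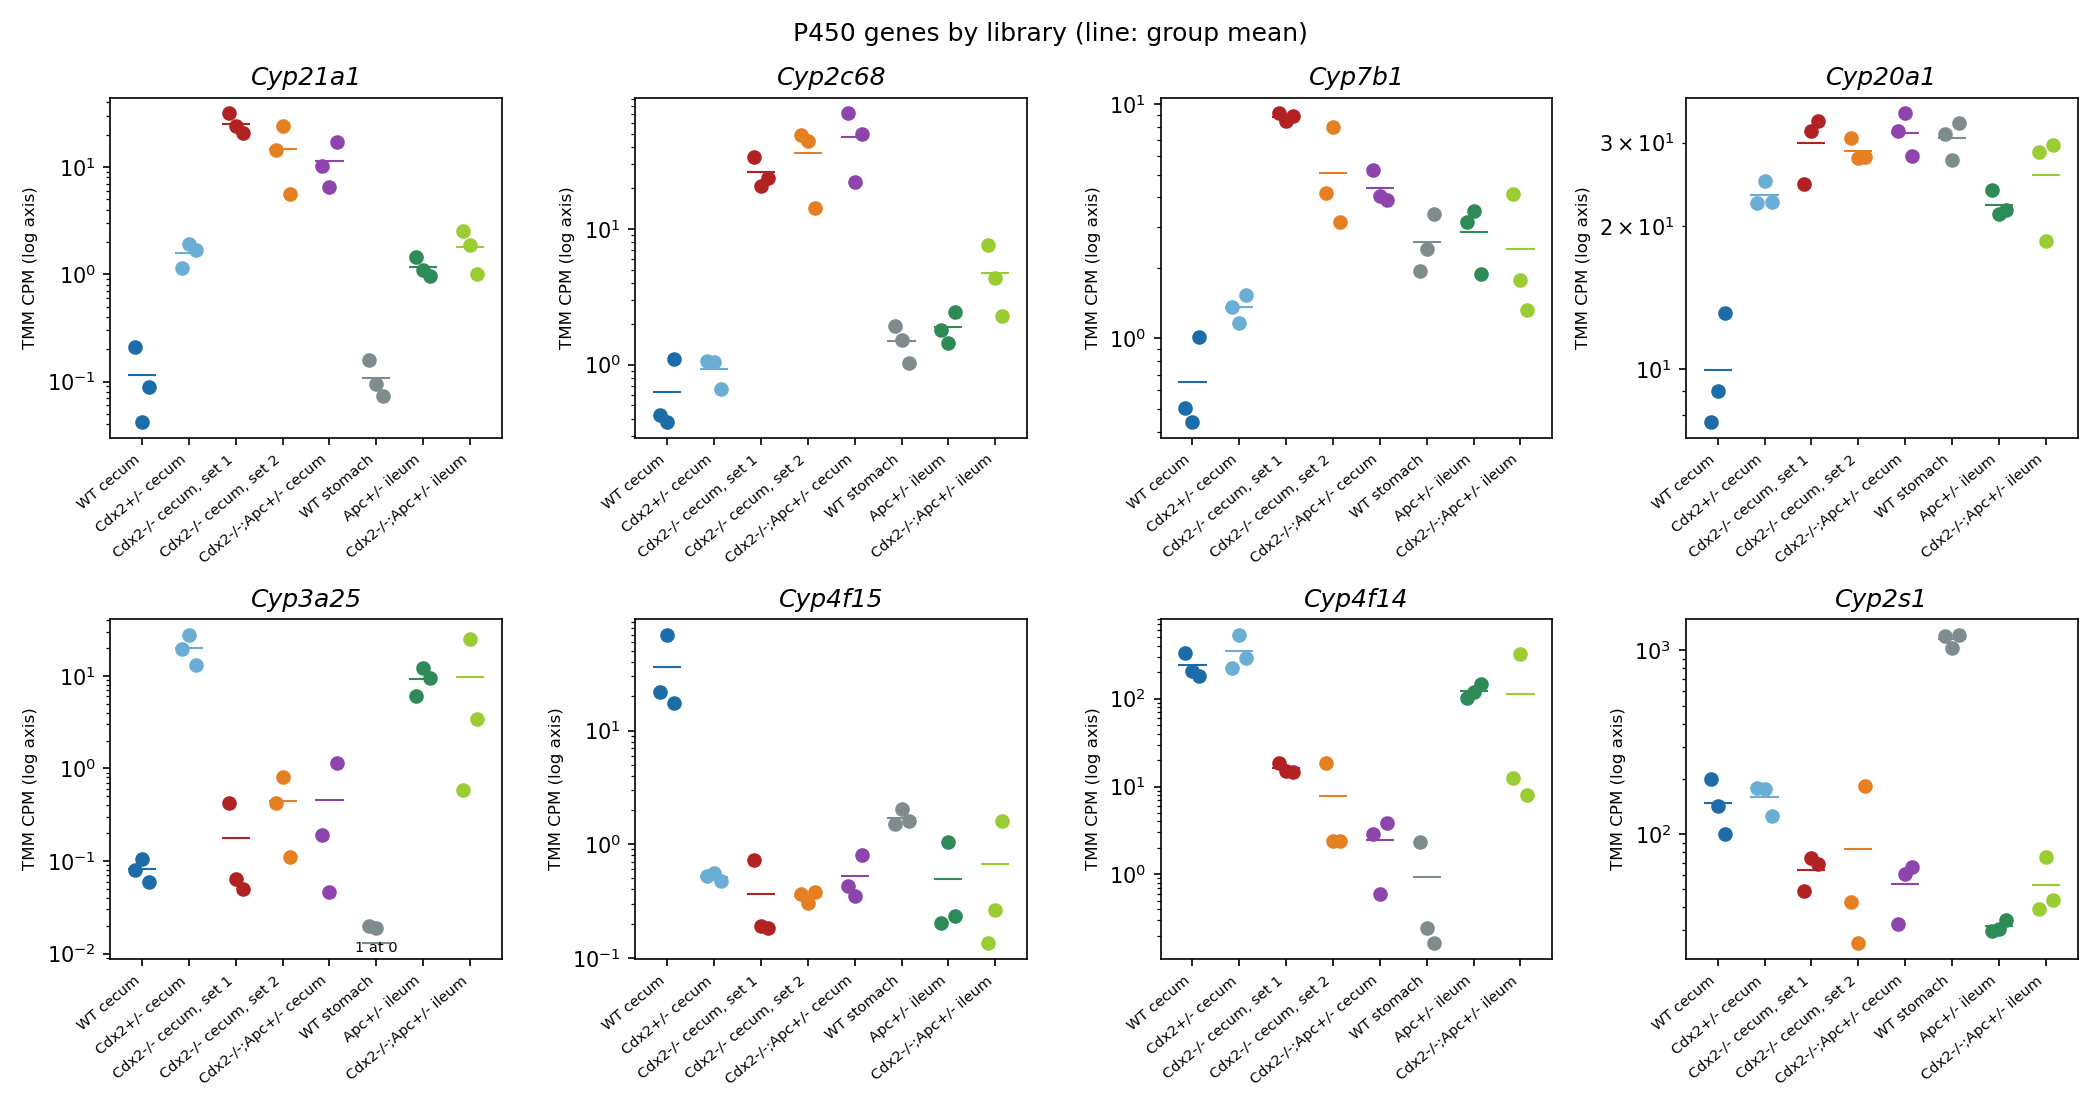
TMM-normalised CPM per library, on log axes with group-mean lines, of Cyp21a1, Cyp2c68, Cyp7b1, Cyp20a1, Cyp3a25, Cyp4f15, Cyp4f14 and Cyp2s1 in the 8 groups. Cyp21a1 lies at 5.53 to 31.5 in the 9 cecum libraries labelled Cdx2-/- against at most 0.212 in wild-type cecum, Cyp3a25 peaks in Cdx2+/- cecum at 13.0 to 27.9, and Cyp2s1 peaks in stomach at 1037 to 1218.

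Few P450 genes differed between the groups with and without the Apc allele when both Cdx2-/- sets were averaged. Between Cdx2-/-;Apc+/- and Cdx2-/- cecum 2 of 46 members were called, 1 higher and 1 lower. Among all genes 8.43% were called (3.93% higher and 4.5% lower). The member count depended on which Cdx2-/- set was used alone, and set 1 also differs in sex from Cdx2-/-;Apc+/- cecum. Cyp4b1, at 33.3, 10.5 and 44.6 CPM in Cdx2-/-;Apc+/- and 3.58 to 18.4 in Cdx2-/- cecum, was higher with a change of 1.76 ± 0.53 (SE, edgeR adjusted p = 0.045) with overlapping libraries, and the call was lost in 8 of the 9 fits that left out 1 library (edgeR adjusted p of 0.053 to 0.2 there). Cyp2c23, at 0.404, 0.601 and 0.593 CPM against 0.879 to 2.35, was lower with a change of -1.59 ± 0.43 (SE, edgeR adjusted p = 0.029) without overlap, and the call was lost in 6 of the 9 fits that left out 1 library (edgeR adjusted p of 0.055 to 0.11 there). Without replicate 1 of set 1 Cyp2c55 was called higher in Cdx2-/-;Apc+/- cecum, at 3.85 (edgeR adjusted p = 0.019), where all libraries gave 1.27 ± 1.11 (SE, edgeR adjusted p = 0.51). The same omission gave a call for Cyp2w1 at 1.62 (edgeR adjusted p = 0.036).

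Between wild-type stomach and wild-type cecum 25 of 46 members were called, 10 higher and 15 lower in stomach. Among all genes 43.7% were called (22.1% higher and 21.6% lower). The median log2 change was -0.06 over the members and 0.04 over all genes, and all 25 calls held in each of the 6 fits that left out 1 library. Cyp2s1 stood at 1205, 1037 and 1218 CPM in stomach, above all other libraries, with a change of 2.97 ± 0.52 (SE, edgeR adjusted p = 0.00012) against cecum. Cyp2c65, at 650.5, 359 and 326 CPM, overlapped with its cecum level, with a change of 0.24 ± 0.44 (SE, edgeR adjusted p = 0.69). Cyp2c23 rose in stomach with a change of 3.09 ± 0.46 (SE, edgeR adjusted p = 2.4e-05). Cyp4f17, at 6.47, 7.34 and 7.46 CPM against 4.29, 3.45 and 3.64, rose with a change of 0.90 ± 0.26 (SE, edgeR adjusted p = 0.0086) and Cyp27b1 with a change of 4.33 ± 0.53 (SE, edgeR adjusted p = 2.3e-06). The stomach and cecum libraries of these 3 genes did not overlap.

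Members that were far lower in stomach included Cyp2c55 at 27.4, 9.69 and 5.84 CPM, a change of -9.20 ± 1.89 (SE, edgeR adjusted p = 0.0006), and the Cyp4f genes Cyp4f40 and Cyp4f14. Cyp4f40 was at 0.710, 0.227 and 0.328 CPM, a change of -8.24 ± 0.63 (SE, edgeR adjusted p = 8.0e-09). Cyp4f14 was at 2.37, 0.246 and 0.164 CPM, a change of -8.03 ± 1.46 (SE, edgeR adjusted p = 0.00018). Cyp2w1, at 0.0986 to 0.208 CPM, changed by -6.22 ± 0.78 (SE, edgeR adjusted p = 3.3e-06) and Cyp4b1, at 1.64 to 2.50, by -6.10 ± 0.79 (SE, edgeR adjusted p = 4.6e-06). Cyp2j6, at 217, 199.9 and 195 CPM, was not called, with a change of 0.21 ± 0.18 (SE, edgeR adjusted p = 0.38). Cyp4f39 was at 1.40, 1.36 and 10.8 CPM, so its change of 4.40 ± 0.79 (SE, edgeR adjusted p = 0.00015) became 2.69 (edgeR adjusted p = 0.0013) without stomach replicate 3. Cyp2b10, the classic target of the constitutive androstane receptor, was at 3.55, 6.72 and 2.07 CPM in stomach against 2 reads in all in wild-type cecum. Cyp2c68, high in Cdx2-/- cecum, was at 1.91, 1.51 and 1.02 CPM in stomach, below every cecum library labelled Cdx2-/-, and Cyp21a1, also high there, was at 0.0728 to 0.158 CPM.

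Apc+/- ileum, which differs from wild-type cecum in both tissue and Apc genotype, gave 34 called members of 46, 13 higher and 21 lower, where 55.4% of all genes were called (28.1% higher and 27.2% lower). Medians were -0.93 over the members and 0.03 over all genes. Scaling by library size alone moved these changes by a median of 0.63 and gave 17 higher and 18 lower. Cyp2c55 was at 0.647, 1.60 and 2.04 CPM in Apc+/- ileum, a change of -12.52 ± 2.14 (SE, edgeR adjusted p = 7.4e-05) from cecum. Cyp2c65, at 14.1, 9.17 and 16.5, changed by -4.83 ± 0.52 (SE, edgeR adjusted p = 4.2e-07), and Cyp2d34, at 0.715, 1.71 and 0.742, by -6.80 ± 1.04 (SE, edgeR adjusted p = 2.4e-05). Cyp2d12 and Cyp4f15 also fell, with changes of -5.12 ± 1.48 (SE, edgeR adjusted p = 0.0066) and -6.22 ± 0.89 (SE, edgeR adjusted p = 1.1e-05). Higher in ileum were the clustered Cyp3a25, at 6.06, 12.2 and 9.42 CPM and 6.81 ± 1.33 (SE, edgeR adjusted p = 0.00028), and Cyp27a1, at 48.3, 43.1 and 50.5 CPM and 1.34 ± 0.20 (SE, edgeR adjusted p = 1.7e-05). Cyp4a29, a fatty acid hydroxylase, was at 0.681, 1.36 and 2.60 CPM in Apc+/- ileum and had 0 reads in wild-type cecum, which allows up to 3 reads per library. Cyp4f14, at 102, 120.3 and 148 CPM in Apc+/- ileum, was not called, with a change of -0.96 ± 1.06 (SE, edgeR adjusted p = 0.46).

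Between Cdx2-/-;Apc+/- and Apc+/- ileum no member passed the threshold in edgeR's test, where 0.444% of all genes were called (0.395% higher and 0.0488% lower). At an unadjusted p under 0.05 there were 10 members, and DESeq2 called 4, all higher. The median log2 change was 0.54 over the members and 0.03 over all genes. The library labelled Cdx2-/-;Apc+/- ileum replicate 2, which also held the most Cdx2 RNA, stood apart in many members. Cyp4f14 was at 12.5, 320.0 and 7.98 CPM in the 3 libraries labelled Cdx2-/-;Apc+/-, against 102, 120.3 and 148 in Apc+/- ileum. Cyp3a13 was at 59.8, 321 and 114 CPM, against 75.5, 38.8 and 104. For Cyp3a11 the values were 0.0223, 26.2 and 2.11 CPM against 0.493, 1.76 and 2.84. In these 3 genes replicate 2 was above all Apc+/- libraries and at least 1 of the others below or among them. Cyp2e1, the ethanol-oxidising enzyme, was at 0.245, 13.1 and 0.497 CPM in the libraries labelled Cdx2-/-;Apc+/- and did not exceed 1.52 in the other 21 libraries. Without replicate 2, 583 of 20926 genes tested were called, among them 3 members. Cyp2c65, at 59.7, 21.2 and 67.8 CPM, was then higher with a change of 2.27 (edgeR adjusted p = 0.0072) and Cyp2d10, at 4.15, 1.39 and 1.67, with 2.43 (edgeR adjusted p = 0.039). Cyp2u1, a hydroxylase of long-chain fatty acids at 1.03, 4.39 and 0.368 CPM against 3.11, 2.67 and 4.34, was then lower with a change of -2.28 (edgeR adjusted p = 0.013).

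**Figure D5:**
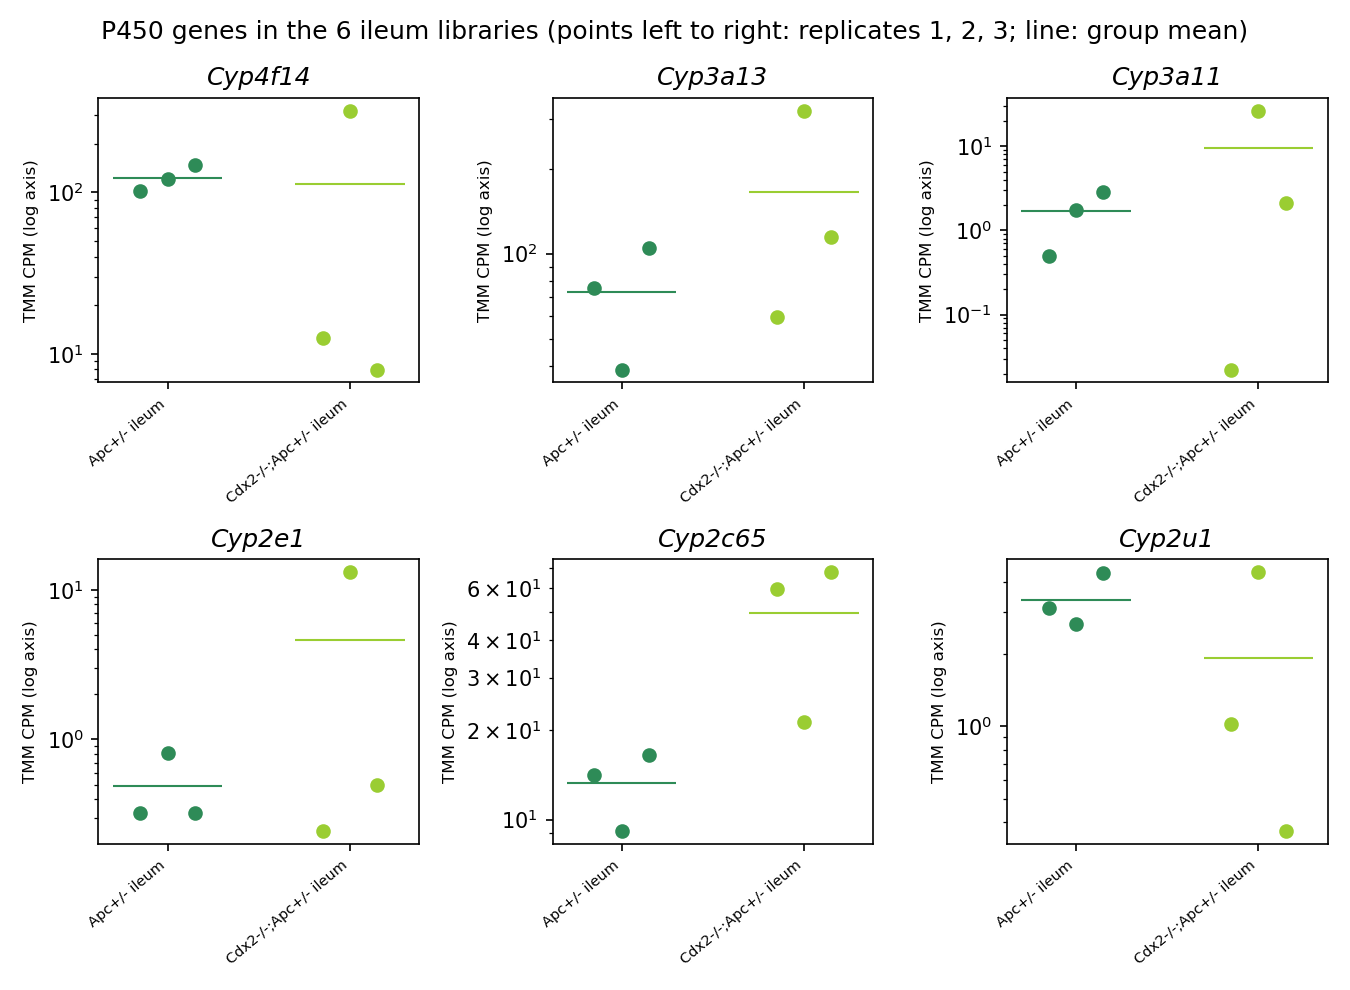
TMM-normalised CPM of Cyp4f14, Cyp3a13, Cyp3a11, Cyp2e1, Cyp2c65 and Cyp2u1 in Apc+/- ileum and in the libraries labelled Cdx2-/-;Apc+/- ileum, with replicates 1, 2 and 3 from left to right in each group. Replicate 2 of the latter stands above the other 5 ileum libraries in Cyp4f14, Cyp3a13, Cyp3a11 and Cyp2e1, at 320.0, 321, 26.2 and 13.1 CPM.

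The Cdx2-/-;Apc+/- change differed between tissues for 23 members, by a test of the cecum change (Cdx2-/-;Apc+/- against wild-type) minus the ileum change (Cdx2-/-;Apc+/- against Apc+/-): 16 were lower and 7 higher, where 34.7% of all genes were called (18.3% lower and 16.4% higher). The control carries the Apc allele in the ileum and not in the cecum, so the tissue and the control genotype differ together. Scaling by library size alone moved these differences by a median of 0.51 and gave 13 lower and 9 higher. The most negative difference was that of Cyp2c55, -8.40 ± 2.16 (SE, edgeR adjusted p = 0.0058), and the most positive that of Cyp21a1, 6.05 ± 0.77 (SE, edgeR adjusted p = 1.8e-05). Without the library labelled Cdx2-/-;Apc+/- ileum replicate 2 there were 22 called members (13 lower, 9 higher), where 6072 of 20926 genes were called. The difference of Cyp4f14 then moved from -6.49 ± 1.64 (SE, edgeR adjusted p = 0.0053) to -3.01 (edgeR adjusted p = 0.06). Cyp4f16 moved from -2.94 ± 0.66 (SE, edgeR adjusted p = 0.0024) to -1.77 (edgeR adjusted p = 0.0067).

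P450 enzymes depend on electron donors and haem, and of the 14 genes of that supply 5 fell and 3 rose in Cdx2-/- cecum (median log2 change -0.38), where 53.1% of all genes were called. The share of these genes called was thus near that of all genes. Por, the reductase that serves all microsomal P450 enzymes, was at 544, 448 and 248 CPM in wild-type, 354, 392 and 345 in Cdx2+/- and 111 to 137 in Cdx2-/- cecum. The Cdx2-/- libraries lay below all others of the 3 groups, with a change against wild-type of -1.73 ± 0.22 (SE, edgeR adjusted p = 2.9e-06). Alas1, the first enzyme of haem synthesis, changed by -1.70 ± 0.16 (SE, edgeR adjusted p = 9.7e-08), and Fdxr, the reductase of the mitochondrial chain, by -2.20 ± 0.23 (SE, edgeR adjusted p = 2.4e-07). Cyb5b, a cytochrome b5, changed by -1.15 ± 0.14 (SE, edgeR adjusted p = 1.6e-06). In Cdx2+/- cecum 4 of the 14 rose and 3 fell (34.4% of all genes were called), in Cdx2-/-;Apc+/- cecum 1 rose and 7 fell (52.8% of all genes), and between the ileum groups none was called.

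Of 21 nuclear receptors and related factors that regulate P450 genes, 12 fell and none rose in Cdx2-/- cecum (median log2 change -1.0), where 26.2% of all genes fell and 26.9% rose. In Cdx2+/- cecum 2 fell and 3 rose (17.3% and 17.1% of all genes), and in Cdx2-/-;Apc+/- cecum 11 fell and 1 rose (26.1% and 26.6% of all genes). Hnf4a was at 2163, 2147 and 1219 CPM in wild-type, 983, 1164 and 1006 in Cdx2+/-, 304 to 426 in Cdx2-/- and 264, 198 and 293 in Cdx2-/-;Apc+/- cecum. The 3 genotypes were ordered without overlap from wild-type through Cdx2+/- to Cdx2-/-, and the change of Cdx2-/- against wild-type was -2.36 ± 0.27 (SE, edgeR adjusted p = 9.3e-07). Rxra, the shared partner of these receptors, changed by -1.87 ± 0.20 (SE, edgeR adjusted p = 2.8e-07), and the fatty acid receptors Ppara by -4.00 ± 0.50 (SE, edgeR adjusted p = 2.1e-06) and Ppard by -1.63 ± 0.21 (SE, edgeR adjusted p = 3.8e-06). Nr1i2, the pregnane X receptor, was at 134, 165 and 97.3 CPM in wild-type, 95.3, 95.4 and 86.6 in Cdx2+/-, 58.1, 37.6 and 35.7 in set 1 and 48.3, 56.5 and 91.1 in set 2. Cdx2+/- lay below wild-type and the Cdx2-/- sets below or beside Cdx2+/-. Ahr, the receptor of β-naphthoflavone, was at 23.9 to 53.3 CPM over all 24 libraries. It was at 25.5, 23.9 and 32.9 in wild-type, 29.4, 35.2 and 36.9 in Cdx2+/- and 25.9 to 39.8 in Cdx2-/- cecum. In Cdx2-/-;Apc+/- cecum it was at 38.1, 53.3 and 46.2, above wild-type and Cdx2+/- and overlapping with Cdx2-/-. Whether any of these receptors took part in the P450 changes was not tested.

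Of 12 epoxide and eicosanoid enzymes, which work up or compete for the same lipids, 7 rose and none fell in Cdx2-/- cecum, where 26.9% of all genes rose and 26.2% fell. Ptgs2, the inducible prostaglandin synthase, changed by 3.06 ± 0.43 (SE, edgeR adjusted p = 8.8e-06), and Ptges, a prostaglandin E synthase, by 1.49 ± 0.21 (SE, edgeR adjusted p = 9.2e-06). Ephx1, the microsomal epoxide hydrolase, changed by 1.71 ± 0.28 (SE, edgeR adjusted p = 4.8e-05). In Cdx2+/- cecum 5 of the 12 rose and 1 fell (17.1% and 17.3% of all genes). Of 18 retinoid genes 7 rose and 2 fell in Cdx2-/- cecum, where 53.1% of all genes were called, so the share called was near that of all genes. In Cdx2+/- cecum 9 of the 18 rose and 4 fell, where 34.4% of all genes were called. The retinoic acid-forming Aldh1a3 changed by 4.39 ± 0.36 (SE, edgeR adjusted p = 1.6e-08) in Cdx2-/- cecum and Aldh1a1 by -3.64 ± 0.34 (SE, edgeR adjusted p = 7.4e-08).

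Markers of cell types moved with the same groups, in comparisons that called 53.1% of all genes in Cdx2-/- and 34.4% in Cdx2+/- cecum. Of 8 general epithelial markers 5 fell and 1 rose in Cdx2-/- cecum, with summed levels of 15016 to 25543 CPM in wild-type and 7223 to 17161 in Cdx2-/- cecum, and in Cdx2+/- cecum 1 rose and none fell (26929.6 to 28160.2 CPM). Smooth muscle markers fell in Cdx2+/- cecum, 8 of 8 (233 to 713 CPM against 1417 to 4428), and none of the 8 was called in Cdx2-/- cecum. Of 8 squamous keratinocyte markers all rose in Cdx2+/- cecum (61.0 to 791 CPM against 1.46 to 4.58 in wild-type) and 5 rose in Cdx2-/- cecum (20.9 to 82.7 CPM). Of 7 fibroblast markers 5 rose in Cdx2-/- cecum (1365 to 2648 CPM against 431 to 1176) and of 8 macrophage markers also 5 (184 to 304 CPM against 81.4 to 208). Of 9 hepatocyte markers tested 7 rose and 1 fell in Cdx2-/- cecum, at summed levels of 86.4 to 185 CPM against 71.4 to 120.3. Their median log2 change there was 3.17. Over all 24 libraries the 10 listed genes differed in their highest level: Fgb, Serpina1a, Fga, Apoh, Ahsg and Hpx reached at most 0.740, 1.62, 1.90, 1.99, 4.42 and 4.91 CPM, while Tat reached 45.3, Alb 66.2, Ttr 131 and Cps1 160.1. Pancreatic Cpa1 and Amy2a5 had 0 reads in all libraries, and of the 4 pancreatic markers tested 2 rose and 1 fell in Cdx2-/- cecum. Of the 6 adipocyte markers tested 1 rose and 1 fell there. The part of these cell types in the P450 changes was not tested.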

How the data were processed

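RNA sequencing gave 24 libraries of mouse gut tissue, 3 for each of 8 groups assigned from the sample titles. Trizol was used for total RNA and a TruSeq mRNA kit for libraries, per the labels' protocols. The authors deposited raw read counts per gene. CASAVA, TopHat2 2.0.11, HTSeq 0.5.3p3 and the GRCm38 build are named in the submitters' processing notes. How reads were counted (mode, strand, annotation release) was not given in the sources used here. The 5 closing entries of each file were left out, among them alignments that were not unique (17.3% to 30.0%).

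Symbols were matched through GENCODE for GRCm38 (37693 of 39179 genes). Genes passing filterByExpr (20502) were fitted over all groups with edgeR 4.0.16 in R 4.3.3 (TMM, quasi-likelihood F test, Benjamini-Hochberg adjustment over all genes, threshold 0.05). The mean of both Cdx2-/- sets entered their contrasts. DESeq2 1.42.0, other scalings and filters, single sets and fits without 1 library were alternatives. Simulated counts were run only through a fit of Cdx2+/- and wild-type cecum, so the fit over all groups was not tested that way. Promoter windows came from RefSeq (GRCm38.p6), searched on both strands.

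Individual values were given for the 20 members highest by mean over group means, for up to 5 called changes each way per comparison (group mean of at least 5 CPM, no overlap), for the 3 highest members of each role and for up to 4 genes of each other list, and further members were named after their values were seen. The members and gene lists were chosen with earlier results of these data known. Libraries held 36567685 to 87975179 gene reads. Values are TMM-normalised CPM unless stated otherwise, and SE is that of the log2 change.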

Additional observations from a re-analysis of the deposited data

Results flagged for a closer look

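The change in cecum (Cdx2-/-;Apc+/- against wild-type) minus the change in ileum (Cdx2-/-;Apc+/- against Apc+/-) passed the threshold in 23 of 46 members, where 34.7% of all genes did. All values here are differences of log2 changes, from edgeR's test of the difference itself.

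Among Cyp2 and Cyp3 members the cecum change was the lower one for Cyp2c55 at -8.40 (edgeR adjusted p = 0.0058), Cyp2d34 at -5.02, Cyp3a13 at -4.14, Cyp2d26 at -3.72, Cyp2d22 at -3.69, Cyp2c65 at -3.37, Cyp2c23 at -3.06 and Cyp2s1 at -2.21. Among the fatty acid and eicosanoid members it was the lower one for Cyp4f15 at -6.57, Cyp4f14 at -6.49 (edgeR adjusted p = 0.0053), Cyp4b1 at -4.13, Cyp4f16 at -2.94, Cyp4f13 at -2.25, Cyp4f40 at -1.85, Cyp2j9 at -1.63 and Cyp2j6 at -1.41. The cecum change was the higher one for Cyp21a1 at 6.05 (edgeR adjusted p = 1.8e-05), Cyp2c67 at 4.98, Cyp2c68 at 4.86, Cyp11a1 at 3.28, Cyp7b1 at 2.97, Cyp27b1 at 2.78 and Cyp20a1 at 1.45.

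In fits that left out 1 of the 12 libraries, the call of Cyp4f40 was lost in 6 of 12 (-1.85 to -1.12, edgeR adjusted p of 0.051 to 0.14 there), that of Cyp2d26 in 4 of 12 (-3.53 to -2.77, edgeR adjusted p of 0.0504 to 0.0923) and that of Cyp2s1 in 2 of 12 (-1.93 to -1.87, edgeR adjusted p of 0.054 to 0.055). The difference for Cyp2c67 was 2.70 (edgeR adjusted p = 0.31) without Apc+/- ileum replicate 2. Without the library labelled Cdx2-/-;Apc+/- ileum replicate 2, the omission that gave -1.12 for Cyp4f40, -2.77 for Cyp2d26 and -1.87 for Cyp2s1, the call of Cyp4f14 was also lost, at -3.01 (edgeR adjusted p = 0.06). That omission gave calls for Cyp3a25 at 4.72 (edgeR adjusted p = 0.02) and Cyp3a44 at 5.72 (edgeR adjusted p = 0.0086). Control genotype and tissue differ together in this test.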

How the results depend on the processing

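Of 194 called member changes, 2971 values under alternatives kept their direction, and 212 of these missed the threshold. Leaving out 1 library gave 25 to 31 called members for Cdx2-/- against wild-type cecum, 16 to 19 for Cdx2+/-, 26 to 29 for Cdx2-/-;Apc+/-, 20 to 30 for Cdx2-/- against Cdx2+/-, 0 to 3 for Cdx2-/-;Apc+/- against Cdx2-/-, 1 to 5 for set 2 against set 1, 25 to 26 for stomach, 31 to 33 for Apc+/- ileum, 0 to 3 between the ileum groups and 20 to 25 for the difference between tissues. Set 1 alone gave 19 in place of 29 for Cdx2-/- against Cdx2+/- cecum. For Cdx2-/-;Apc+/- against Cdx2-/- cecum, 2 became 1 without the count filter, 0 with set 1 replicates 2 and 3 as 1 sample, 7 with set 1 alone and 0 with set 2 alone. For set 2 against set 1, 2 became 4 in DESeq2, and 1 both with set 1 replicates 2 and 3 as 1 sample and in a fit of these groups alone. Between the ileum groups 0 became 4 in DESeq2. The cause of these shifts was not tested.

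A replicate block over 21 libraries numbered 1 to 3 (Cdx2-/- then being set 1) gave 6 called members for Cdx2-/-;Apc+/- against Cdx2-/- cecum, 20 for Cdx2-/- against Cdx2+/- cecum and 25 for Cdx2-/- against wild-type, beside 7, 19 and 27 with set 1 alone and no block. It gave 2 in place of 0 between the ileum groups. Same-numbered libraries had deviations correlated over 0.1 in 18 of 63 pairs (median 0.0412), and 11 of 21 libraries correlated best with their own number, so the numbers were not read as pairs. No paired analysis was possible for set 2 against set 1 because these share no replicate number.

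Members under 1 CPM rest on few reads. Deletion, agents and, in set 1, sex cannot be told apart, and the 3 cecum comparisons with wild-type share 3 control libraries.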

Other observations

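Cyp11a1, which begins steroid synthesis, stood highest in the ileum. It was at 3.59, 1.23 and 4.02 CPM in Apc+/- ileum and 1.87, 1.87 and 2.15 in the libraries labelled Cdx2-/-;Apc+/- ileum, above all 18 cecum and stomach libraries except for 1 overlap with Cdx2-/-;Apc+/- cecum replicate 2 at 1.48. Cyp26b1, which clears retinoic acid, was lowest in stomach at 0.237, 0.473 and 1.06 CPM, with a change of -2.29 ± 0.57 (SE, edgeR adjusted p = 0.0031) against cecum. Cyp2u1 was at 2.68, 3.25 and 2.33 CPM in stomach and 3.11, 2.67 and 4.34 in Apc+/- ileum, against 0.689, 0.418 and 0.624 in wild-type cecum.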
